A study of Mus musculus with 9 samples.

Results

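Ovaries of mice labelled as Taf4b knockouts were compared with ovaries of Taf4b heterozygotes, using all 3 arrays of each label out of 9 arrays in the series and every probe set with a gene symbol, 25100 of 28266. The 24949 probe sets with a single symbol stand for 22231 genes. Total RNA of mice aged 3 weeks was hybridised to GeneChip Mouse Gene 1.0 ST arrays, with every mouse on an array of its own, and replicate error therefore includes the differences among mice. The remaining 3 arrays came from wild-type mice. They enter the estimate of the spread, and their values are given for part of the genes and lists. By the design text the labelled knockouts are null for Taf4b and the heterozygotes carry one targeted allele, and the sources used here leave out strain, littermate relations and the design of the targeted allele. The ovary is a mixture of oocytes, granulosa and theca cells, stroma, vessels, surface epithelium and blood-derived cells, in which fewer cells of a type and less RNA per cell cannot be told apart.

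Taf4b encodes a paralogue of TAF4 that is enriched in gonads. TAF4 is a core component of the TFIID complex, which recognises core promoters and helps to place RNA polymerase II. Granulosa cells surround the oocyte, divide as the follicle grows, respond to follicle-stimulating hormone through Fshr and secrete inhibins and follistatin, while theca cells supply androgen. Female mice that lack TAF4B are known to be infertile, and their follicles are lost early.

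The targeted gene itself did not separate the labels. Taf4b intensity (linear RMA units) was 332.0, 625.6 and 402.8 in the arrays labelled knockout 1, 2 and 3, and 455.8, 594.8 and 574.3 in heterozygotes 1, 2 and 3. Wild-type arrays gave 493.6, 634.9 and 723.4. The groups overlapped: the array labelled knockout 2 stood above every heterozygote array, at 115% of their mean, while the other 2 labelled knockout arrays lay below all heterozygotes. The Taf4b level of knockout 2 goes against its label, and the genotype of this mouse was not tested. The difference on the log2 scale, labelled knockout minus heterozygote as in all that follows, was -0.30 (SE 0.23, limma adjusted p = 0.568), and a two-sided exact permutation test gave p = 0.4, where 3 arrays against 3 cannot go below 0.1. Without the array labelled knockout 2 it was -0.56 (adjusted p = 0.158). The sources used here do not say where the probes lie relative to the deleted part of the gene, so a remaining signal may come from transcript outside it. Because of this array, and because heterozygote 1 correlated least with the other arrays (0.989 to 0.992, against 0.993 to 0.998 among the rest), values without knockout 2, or without both, stand beside many of the results below. Knockout 2 correlated at 0.99482 and 0.99471 with knockouts 1 and 3, which correlated at 0.99751 with each other. With heterozygotes 1, 2 and 3 it correlated at 0.98938, 0.99618 and 0.99635.

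With all 9 arrays in the limma fit, 6 probe sets, which stand for 5 genes, had an adjusted p under 0.05 (here "called"), 0.0239% of those tested. Of these, 1 gene was higher in the labelled knockouts (0.00398% of probe sets) and 4 genes were lower, through 5 probe sets (0.0199%). All 6 had labelled knockout and heterozygote arrays that did not overlap. At an unadjusted p of 0.05 there were 1936 probe sets higher and 1648 lower, 7.71% and 6.57% of those tested. Over all genes, with 1 probe set each, the median difference was -0.012, 45.9% of genes stood above 0 and 54.0% below.

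Dsc2, a desmosomal cadherin of epithelia, was the one gene that rose. Its intensities were 178.0, 175.1 and 188.4 in the labelled knockouts against 113.9, 112.0 and 102.2 in heterozygotes, with 135.7, 129.2 and 135.8 in the wild type. The 3 labelled knockout arrays lay above all 6 others, and the heterozygotes below all 6 others. The fold change was 1.65 (log2 0.72, SE 0.06, limma adjusted p = 0.0109). Dsc2 lies on chromosome 18 like Taf4b, as the sixth protein-coding gene from it in the GRCm38.p6 order, so its difference and a difference of the chromosome segment carried along with the targeted allele cannot be told apart.

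Slc6a15, a sodium-dependent carrier of neutral amino acids, showed the largest fall among the called genes. Its intensities were 388.2, 453.3 and 323.5 in the labelled knockouts and 903.0, 923.9 and 866.7 in heterozygotes, and the wild-type values of 661.9, 795.7 and 740.3 lay between the 2 groups. Heterozygotes stood 2.33-fold above labelled knockouts (log2 -1.22, SE 0.12, limma adjusted p = 0.0207). Without the array labelled knockout 2 the log2 difference was -1.34 (adjusted p = 0.00947).

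AA792892, a protein-coding gene of chromosome 5 to which the sources used here give no role, fell by a similar amount. Labelled knockouts gave 351.2, 277.0 and 356.7 and heterozygotes 725.2, 749.1 and 725.2, without overlap, beside 848.3, 964.8 and 841.9 in the wild type. The log2 difference was -1.17 (SE 0.10, limma adjusted p = 0.0109), in 2 probe sets whose deposited values are identical and which count as 1 measurement. Further genes of the same chromosome, Pramel34 of the PRAME family and E330014E10Rik, ran with it. Over 9 probe sets of these 3 genes the differences ranged from -1.17 to -0.15, with pairwise correlations across the 9 arrays of at least 0.735. Probe sets that share target sequence could give such likeness, and whether they do was not tested. Pramel34 stood at -1.15 and E330014E10Rik at -1.12 with non-overlapping arrays, and their limma adjusted p of 0.0728 and 0.0756 missed the threshold, while without knockout 2 they passed at -0.94 (adjusted p = 0.0188) and -0.92 (adjusted p = 0.0250). The E330014E10Rik probe set at -0.15 stood at 0.043 without knockout 2 and heterozygote 1.

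Trpc6, a diacylglycerol-gated cation channel, fell from 648.8, 613.3 and 592.9 in heterozygotes to 418.8, 423.6 and 374.8 in labelled knockouts. Heterozygote and wild-type arrays (607.1, 618.0 and 635.5) shared one range and every labelled knockout array lay below it. The heterozygote level was 1.52-fold the labelled knockout level (log2 -0.61, SE 0.06, limma adjusted p = 0.0317). Nova1, an RNA-binding regulator of splicing best known from neurons, gave 138.3, 132.7 and 143.4 in labelled knockouts, 202.6, 198.9 and 189.0 in heterozygotes and 194.5, 203.7 and 210.6 in the wild type. It was again lower in all 3 labelled knockouts than in any other array (log2 -0.51, SE 0.06, limma adjusted p = 0.0400). A second Nova1 probe set stood at -0.27 and was not called.

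**Figure D1:**
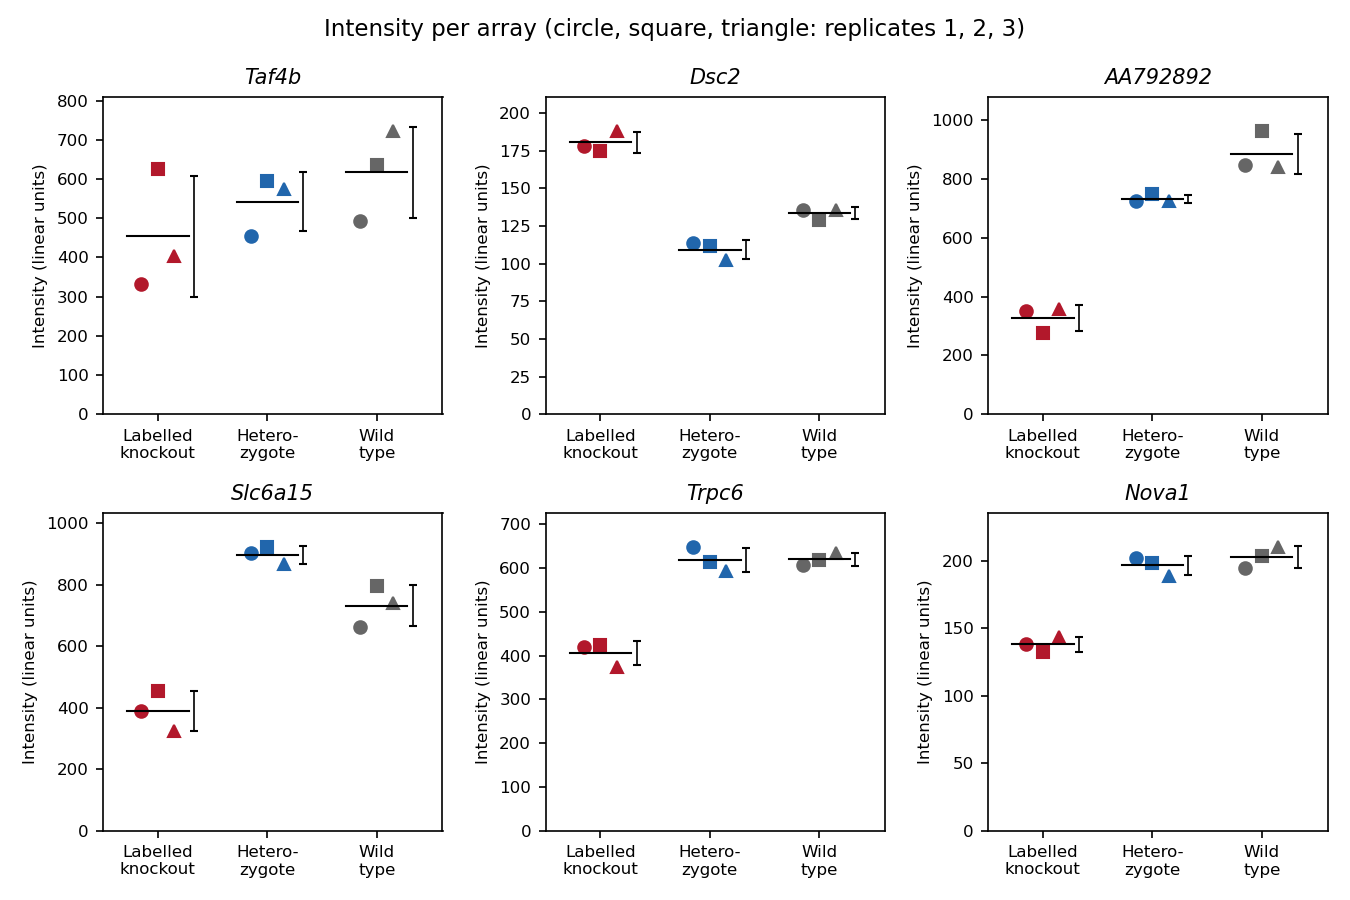
Intensity (linear units, y axis from 0) of Taf4b and the 5 called genes in each array of the 3 labelled genotypes, with group means (lines) and SD (bars, n = 3). Taf4b overlaps between labels because the array labelled knockout 2 gave 625.6, whereas the other 5 genes separate labelled knockouts from heterozygotes completely.

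Upstream sequence is shown for the called genes Trpc6 and Nova1, since they fell together, and for Cybrd1, because it held the only motif match among the 6 windows searched (no Slc6a15 window was at hand). The stretches are the 250 bases before the annotated start, 5′ to 3′ on the gene's strand, from RefSeq promoters of GRCm38.p6: chr9:8543892-8544141 on the plus strand for Trpc6, chr12:46818768-46819017 on the minus strand for Nova1, and chr2:71117804-71118053 on the plus strand for Cybrd1. Capitals mark a match to the AP-1 motif.
Trpc6: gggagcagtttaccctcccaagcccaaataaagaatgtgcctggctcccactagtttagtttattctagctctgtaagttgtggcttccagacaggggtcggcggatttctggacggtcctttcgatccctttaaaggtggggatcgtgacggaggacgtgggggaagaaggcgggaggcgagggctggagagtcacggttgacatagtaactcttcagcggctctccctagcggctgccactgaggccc
Nova1: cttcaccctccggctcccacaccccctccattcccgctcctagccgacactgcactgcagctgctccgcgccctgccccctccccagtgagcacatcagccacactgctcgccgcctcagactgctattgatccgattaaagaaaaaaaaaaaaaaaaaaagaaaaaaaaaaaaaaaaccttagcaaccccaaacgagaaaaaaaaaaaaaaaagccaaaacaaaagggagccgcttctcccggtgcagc
Cybrd1: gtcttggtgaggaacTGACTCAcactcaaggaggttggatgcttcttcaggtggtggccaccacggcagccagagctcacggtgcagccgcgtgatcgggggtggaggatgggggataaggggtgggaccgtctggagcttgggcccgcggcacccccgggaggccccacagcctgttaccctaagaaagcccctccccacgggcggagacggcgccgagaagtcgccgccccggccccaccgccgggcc
Motifs were searched on both strands, and their shares among the 32851 promoters of the table refer to the same 250 bases. TATAAA, the core promoter box of that name, is held by 12.4% of these promoters, and the CCAAT box by 33.8%. TGANTCA, the AP-1 site, is held by 6.75%. CAAGGTCA, to which the steroidogenic factors of the NR5A family bind, is held by 1.33%, and TAATTG, bound by the oocyte factor NOBOX, by 7.17%. Cybrd1 held 1 AP-1 match, TGACTCA, from base 235 to base 229 before the start, and the windows of Trpc6, Nova1, Ccdc141, Igfbp5 and Magea10 held none of these letters. A match describes the sequence alone.

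The next genes by p among those higher in the labelled knockouts missed the threshold, at adjusted p from 0.0567 to 0.0809, with arrays that did not overlap. Car3, a carbonic anhydrase abundant in fat cells, gave 1615, 1857 and 1485 against 782.3, 408.5 and 551.8, with 945.9, 1169 and 980.0 in the wild type (log2 1.55, SE 0.21). Igfbp5, which binds insulin-like growth factors, gave 3259, 3443 and 3193 against 1960, 2055 and 1938 (log2 0.73, SE 0.10). Ccdc141, a coiled-coil protein, stood at 0.80 (SE 0.09), and its 5 probe sets all lay above 0, from 0.44 to 0.82. Cybrd1, a membrane ferric reductase, stood at 0.59, Cst12 of the cystatin family at 0.65, Tapbp, which loads peptides onto class I molecules, at 0.38, the lipid-droplet dehydrogenase Hsd17b11 at 0.46, Col6a3 of collagen VI at 0.51 and the lysosomal protease Ctsb at 0.42. Wild-type arrays of Igfbp5, at 2586, 1959 and 2120, ran from the heterozygote range upwards and stayed below the labelled knockouts.

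Among genes lower in the labelled knockouts, Phex, an endopeptidase that regulates phosphate handling, gave 271.8, 301.8 and 246.3 against 491.8, 750.9 and 579.8 (log2 -1.14, SE 0.15, limma adjusted p = 0.0601). Sema3g, a secreted semaphorin, gave 378.6, 398.0 and 373.8 against 703.1, 734.9 and 957.6 (log2 -1.05, SE 0.15, adjusted p = 0.0728). Slc25a13, the mitochondrial aspartate-glutamate carrier, gave 768.0, 1003 and 784.8 against 1551, 1473 and 1708 (log2 -0.90, SE 0.12, adjusted p = 0.0601). In each of the 3 genes the groups were apart and the wild type lay on the heterozygote side or between. The germline-expressed X-linked Magea10 stood at -0.53, the pyrophosphatase Ppa1 at -0.50 and the peptide carrier family member Slc15a5 at -0.43, none of them called.

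The number of calls depended on single arrays. Leaving out the array labelled knockout 2 gave 261 called probe sets of 237 genes (1.04%), 183 higher (0.729%) and 78 lower (0.311%), and leaving out heterozygote 1 as well gave 409 of 382 genes (1.63%), 270 higher (1.08%) and 139 lower (0.554%). All 6 probe sets called with every array were among both. Leaving out heterozygote 1 alone gave 6 called probe sets, of which 3 (Dsc2 and AA792892) were among those called with every array, and Slc6a15 (adjusted p = 0.0613), Trpc6 (0.0694) and Nova1 (0.0812) no longer passed. Without knockout 1, heterozygote 2 or heterozygote 3 there were 0 calls in limma, with 2365, 3497 and 3279 probe sets at an unadjusted p under 0.05, and without knockout 3, wild type 2 or wild type 3 there were 3. Fitting the 6 compared arrays alone also gave 0, with 2877 at an unadjusted p under 0.05. Without knockout 2, Ccdc141, Cybrd1, Igfbp5, Cst12, Tapbp, Car3 and Hsd17b11 passed as higher, and Magea10, Slc15a5, Slc25a13, Ppa1, Phex and Sema3g as lower, at adjusted p from 0.0191 to 0.0462.

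**Figure D2:**
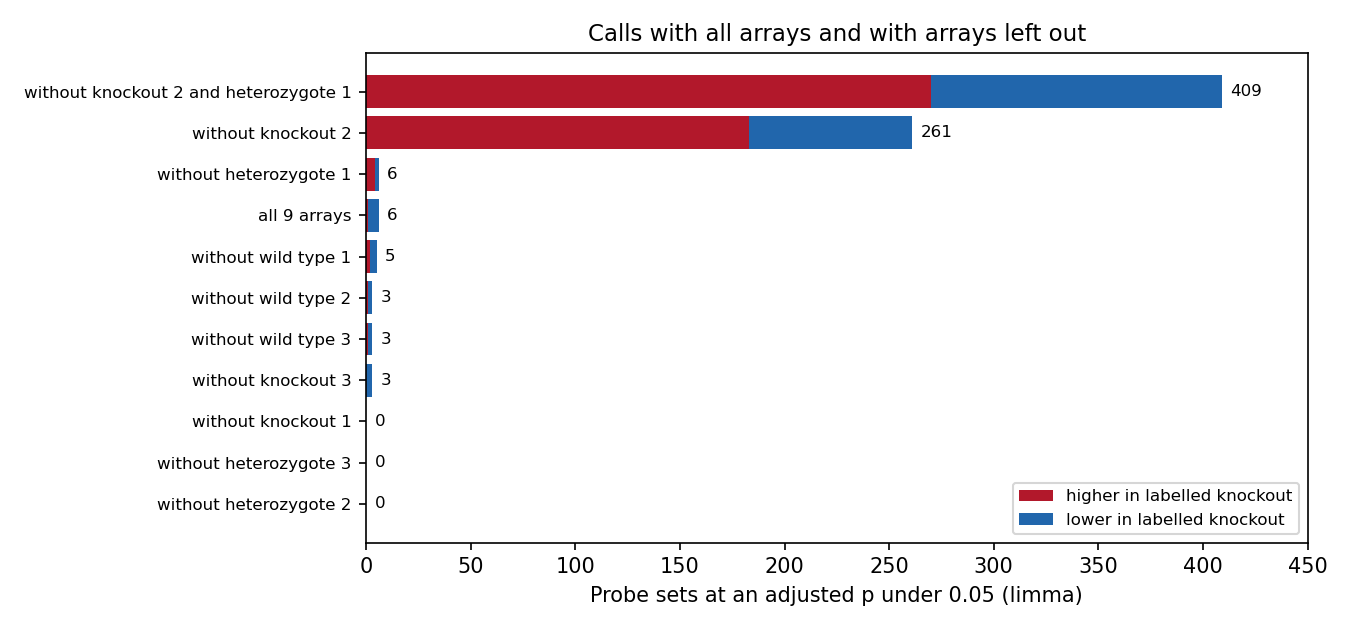
Number of probe sets at a limma adjusted p under 0.05 (x axis), by direction, with all 9 arrays and with the named arrays left out. The count is 6 with all arrays, 261 without the array labelled knockout 2 and 409 without that array and heterozygote 1.

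Cell-cycle genes lay together on the lower side. All 24 DNA replication genes measured stood below 0, with a median of -0.19, and all 24 mitosis genes did, also with a median of -0.19. None was called. Non-overlap was found for 16 of the 24 replication genes (66.7%) and 8 of the 24 mitosis genes (33.3%), all lower, against 8.04% of all genes. Mcm5, a subunit of the replicative helicase, gave 676.6, 766.1 and 772.9 in labelled knockouts and 896.9, 896.1 and 891.1 in heterozygotes (log2 -0.28, SE 0.06, limma adjusted p = 0.149). Lig1, the ligase that joins Okazaki fragments, gave 841.3, 869.0 and 841.6 against 1000, 1020 and 946.5 (log2 -0.22, adjusted p = 0.172), and Rrm2 of ribonucleotide reductase stood at -0.31. In Mcm5, Lig1 and Rrm2 the highest labelled knockout array was below the lowest heterozygote.

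Mitosis genes varied more within the labelled knockouts. Ccnb2, a mitotic cyclin, gave 1217, 1460 and 1150 against 1791, 1560 and 1610 (log2 -0.38, SE 0.10, limma adjusted p = 0.180), and Bub1, a kinase of the spindle checkpoint, gave 714.4, 907.4 and 773.7 against 1017, 1083 and 973.7 (log2 -0.37, adjusted p = 0.195). In both genes the array labelled knockout 2 was nearest to the heterozygotes. Averaged over the list as deviations from the mean of the 6 arrays, mitosis genes stood at -0.17, 0.04 and -0.15 in labelled knockouts 1, 2 and 3 and from 0.05 to 0.13 in heterozygotes. Without knockout 2 the mitosis median was -0.27. Ccnb2 was called lower (limma adjusted p = 0.0465), 1 of 24 where 0.311% of probe sets were called lower. The replication median was then -0.20 with none called. Proliferation markers of broad use stood at -0.22 for Mki67 and -0.24 for Top2a, and both overlapped.

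Granulosa genes went both ways: 11 of 28 stood above 0 and 17 below, with a median of -0.11 and none called. Fst, which encodes follistatin, gave 1250, 1864 and 1108 in labelled knockouts and 2409, 2694 and 2149 in heterozygotes (log2 -0.81, SE 0.18, limma adjusted p = 0.149). Fshr, the receptor for follicle-stimulating hormone, gave 306.1, 487.0 and 236.6 against 574.9, 545.8 and 503.1 (log2 -0.72, SE 0.23, adjusted p = 0.240). Hsd17b1, which makes oestradiol, gave 2325, 3476 and 1757 against 4007, 3787 and 3606 (log2 -0.65, SE 0.20, adjusted p = 0.231). In these 3 genes no labelled knockout array reached the heterozygotes, and knockout 2 came closest each time. Serpine2, a protease inhibitor, stood at -0.23 with non-overlapping arrays.

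Other granulosa genes did not separate. Inhbb, an inhibin subunit, gave 1220, 1964 and 750.9 against 2342, 1918 and 1954 (log2 -0.76, SE 0.28), where knockout 2 lay within the heterozygotes. Inhba gave 1078, 2357 and 424.5 against 1981, 1576 and 913.0, and the labelled knockouts alone spanned the whole range. The identity markers Foxl2 and Amh stood at 0.18 and -0.08, and the aromatase gene Cyp19a1 at 0.30 (SE 0.27). Without the array labelled knockout 2, Fst (-1.03, limma adjusted p = 0.0254), Fshr (-1.01), Inhbb (-1.11), Hsd17b1 (-0.91), Gja1 (-0.46) and Serpine2 (-0.30) passed as lower and Wnt4 (0.46) as higher, so that 7 of 28 were called where the background was 1.04%. Without heterozygote 1 too, Fst, Gja1, Hsd17b1, Esr2 and Wnt4 remained or entered, 5 of 28 where the background was 1.63%. Fshr (limma adjusted p = 0.0518), Serpine2 (0.0569) and Inhbb no longer passed.

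Theca and steroidogenesis genes had a median of 0.17, with 17 of 21 above 0, and 6 (28.6%) higher without overlap, against 8.44% of all genes and 12.9% of the 11116 genes with the highest mean intensity, of which 7.7% were lower without overlap. None was called. Prlr, the prolactin receptor, gave 335.8, 375.0 and 301.3 against 224.6, 257.0 and 252.8 (log2 0.46, SE 0.09, limma adjusted p = 0.115), and Agtr2, an angiotensin II receptor, gave 347.7, 366.6 and 424.2 against 298.0, 238.4 and 242.3 (log2 0.55, SE 0.11, adjusted p = 0.128). Both were above every heterozygote and every wild-type array in all 3 labelled knockouts.

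Steroidogenic enzymes instead followed 2 arrays across the labels. Cyp17a1, the enzyme that makes androgens in theca cells, gave 554.6, 3924 and 362.3 in labelled knockouts and 510.8, 662.1 and 3188 in heterozygotes, with 418.6, 535.9 and 337.6 in the wild type. Cyp11a1, which cleaves the cholesterol side chain, gave 1030, 2919 and 1096 against 867.3, 1030 and 1799, and Star, which brings cholesterol into mitochondria, gave 246.5, 486.5 and 227.7 against 180.7, 162.9 and 545.5. The array labelled knockout 2 and heterozygote 3 were the 2 highest of the 9 for each of the 3 genes, whatever the genotype. The theca list averaged 0.37 in knockout 2 and 0.12 in heterozygote 3, and its median difference was 0.06 without knockout 2.

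Oocyte genes were not called, and their levels hung on one array. Over 38 maternal-effect and storage genes the median was 0.05, and it was 0.25 without the array labelled knockout 2. The list averaged 0.15, -0.36 and 0.21 in labelled knockouts 1, 2 and 3, -0.0841 to 0.0685 in heterozygotes, and 0.15 to 0.44 in the wild type. The heterozygotes thus lay below every wild-type array. Zp3, a coat glycoprotein, gave 4329, 2944 and 4943 against 3208, 2836 and 2485 (log2 0.49, SE 0.20, limma adjusted p = 0.320), and Gdf9, a growth factor secreted by the oocyte, gave 2286, 1525 and 2307 against 1760, 1720 and 1514 (log2 0.27). In both, knockouts 1 and 3 were above all heterozygotes and knockout 2 was within their range. Wild-type arrays of Zp3, at 4469, 3700 and 3173, lay within the labelled knockout range. Padi6, a component of the oocyte lattices, gave 6243, 4490 and 7013 against 4463, 4000 and 3530 (log2 0.55, SE 0.18, adjusted p = 0.247). Wild-type arrays of Padi6, at 5906, 5161 and 4220, overlapped the labelled knockouts. Nobox, an oocyte transcription factor, stood at 0.20, and all 13 genes of its list overlapped between groups. Over all genes 8.44% were higher and 8.04% lower without overlap.

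Some oocyte and germ-cell genes lay on the lower side all the same. Nlrp9c gave 398.3, 299.3 and 441.7 against 631.8, 623.4 and 496.4 (log2 -0.63, SE 0.15, limma adjusted p = 0.173), and Obox2, an oocyte homeobox gene, gave 1052, 689.6 and 1119 against 1445, 1424 and 1295 (log2 -0.57, SE 0.16, adjusted p = 0.213). Together with Nlrp9a, Obox3, Obox5 and E2f8 these were the 6 of 38 that were lower without overlap (15.8%, against 8.04% of all genes), while Padi6 was the 1 that was higher. Nlrp9c, Nlrp9a and Obox2 belong to families of near-identical genes, so their values may be shared with copies. The 6 genes are therefore not all independent measurements.

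Germ-cell genes outside the oocyte lists also split. Tex15, needed for meiotic recombination in the mouse testis, gave 395.1, 593.9 and 512.9 against 758.9, 917.1 and 808.2 (log2 -0.74, SE 0.14, limma adjusted p = 0.117), and passed without knockout 2 at -0.87 (adjusted p = 0.0427). Ddx4, a germ-cell RNA helicase, gave 414.7, 262.0 and 393.1 against 256.7, 205.8 and 179.7 (log2 0.72, SE 0.20, adjusted p = 0.196), and passed there at 0.93 (adjusted p = 0.0499). Wild-type arrays of Ddx4, at 348.3, 281.8 and 265.3, lay within the labelled knockout range. Mov10l1, a piRNA helicase, stood at -0.70 with intensities of 61.9, 59.6 and 72.0 against 119, 103 and 93.4. Of 22 meiosis genes 16 stood below 0, with a median of -0.13 (-0.055 without knockout 2), and 4 (18.2%) were lower and 1 (4.55%) higher without overlap, against 8.04% and 8.44% of all genes. The list of PRAME-named, Xlr and Magea genes, in which AA792892 and E330014E10Rik were also placed, had 13 of 17 below 0 with a median of -0.24, which was -0.079 without heterozygote 1 and -0.033 without both arrays. Of its genes 8, or 47.1% against 8.04% of all genes, were lower without overlap, among them Xlr3a at -0.38 and Magea10, and only AA792892 was called. Several Xlr members are near-identical copies, so these genes are not independent measurements. The list was also chosen with earlier results of these data known, so its share describes the values and tests nothing.

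Other TFIID subunits showed no shift as a group. Of 22 genes of TFIID and the TBP family, Taf4b included, 11 stood above 0 and 11 below, the median was 0.0022, and none was called. Taf4, the paralogue of Taf4b, gave 519.3, 623.5 and 562.3 against 514.4, 580.1 and 592.5 (log2 0.01, SE 0.08), with overlapping groups, and Tbp stood at 0.07. Taf5 was the one gene of the list without overlap, 4.55% of the list, where 8.44% of all genes were higher without overlap. It gave 327.5, 291.3 and 310.0 against 267.8, 267.3 and 265.3 (log2 0.21, SE 0.05, limma adjusted p = 0.182). Wild-type arrays of Taf5, at 296.4, 296.7 and 288.0, lay near the lowest labelled knockout.

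**Figure D3:**
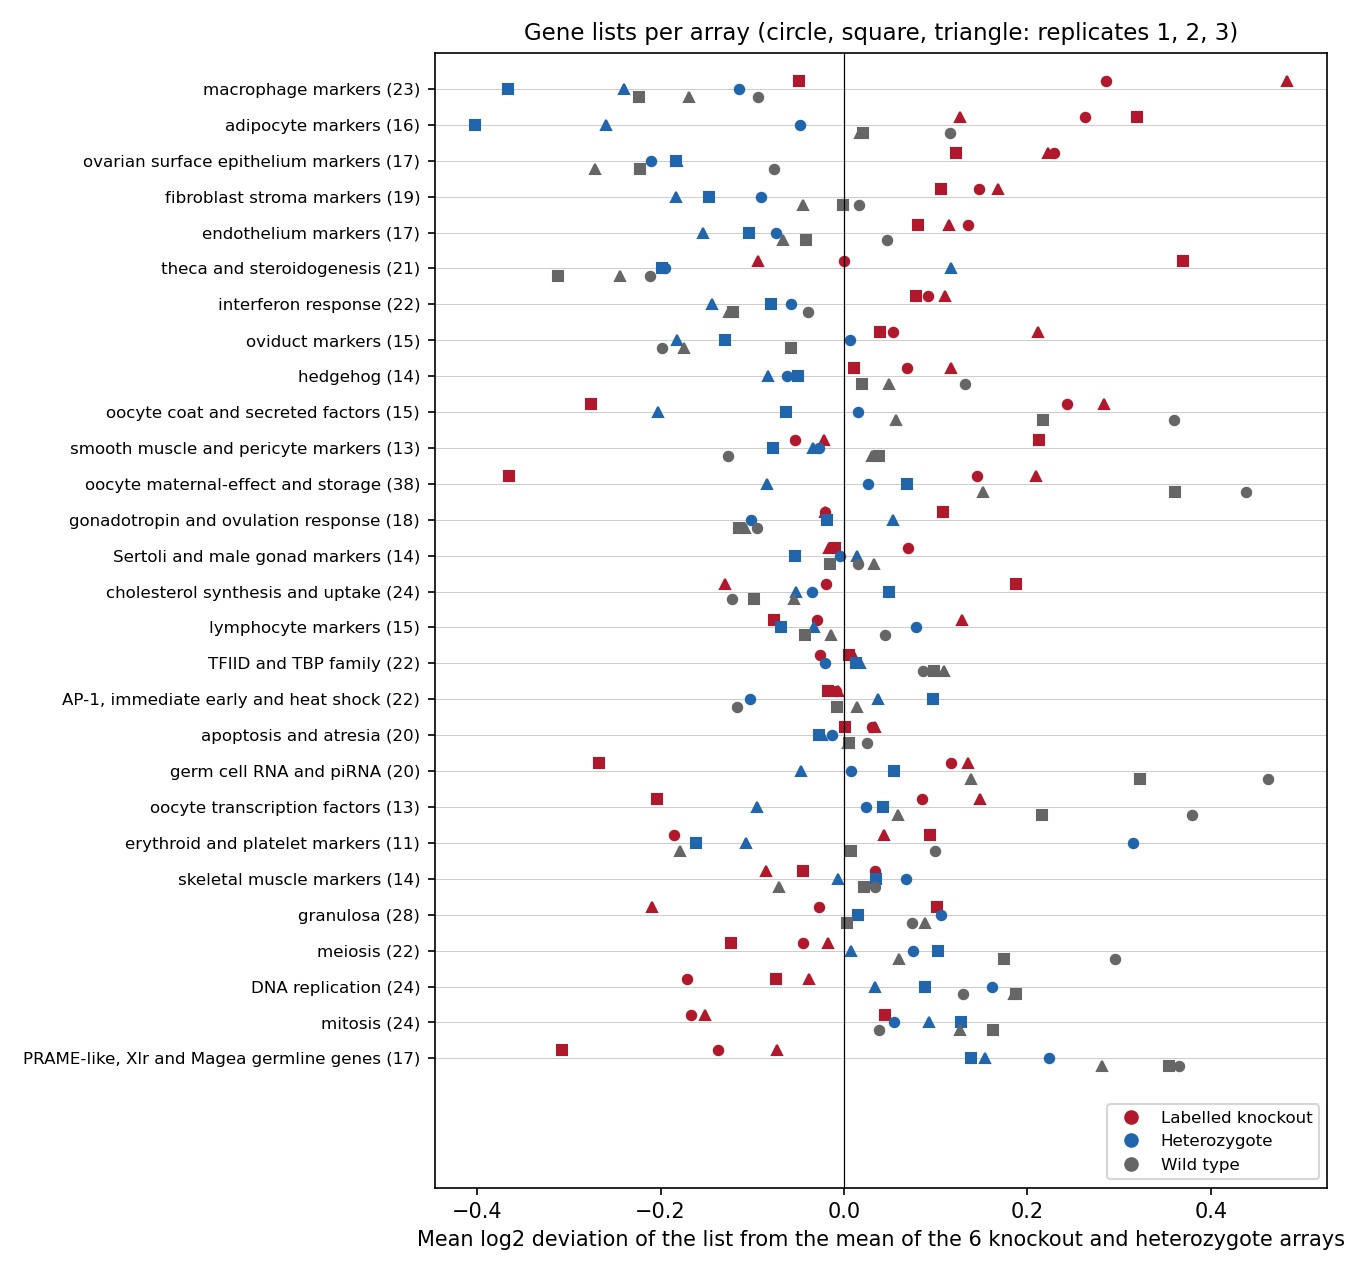
Mean log2 deviation of each gene list (y axis, number of genes measured in parentheses) from the mean of the 6 labelled knockout and heterozygote arrays, 1 point per array. Macrophage, adipocyte, surface epithelium, stroma and endothelium markers lie higher in labelled knockouts and the replication genes lower, while oocyte lists and theca genes place the array labelled knockout 2 (red square) apart from knockouts 1 and 3.

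Marker genes of several non-follicular cell types, though not of all, lay on the higher side. All 23 macrophage markers stood above 0, with a median of 0.49, 12 of them (52.2%) without overlap, against 8.44% of all genes and 12.9% of the brighter ones, and none was called. Lyz2, a lysozyme of myeloid cells, gave 475.6, 382.8 and 712.2 in labelled knockouts, 246.8, 237.6 and 270.5 in heterozygotes and 257.3, 258.7 and 261.8 in the wild type (log2 1.01, SE 0.19, limma adjusted p = 0.115). Ctss, a cathepsin of antigen-presenting cells, gave 589.0, 320.4 and 794.6 against 301.5, 217.0 and 264.9 (log2 1.04, SE 0.29, adjusted p = 0.200). Knockout 2 was the lowest of the labelled knockouts in both and still above the heterozygotes. Adgre1, which encodes the macrophage marker F4/80, gave 116.7, 100.8 and 122.9 against 87.8, 81.4 and 78.5 (log2 0.45), and C1qa and C1qb, chains of complement C1q, stood at 0.46 and 0.68. Summed intensity of the 23 markers ran from 3515 to 5549 in labelled knockouts, from 2672 to 3301 in heterozygotes and from 3010 to 3323 in the wild type.

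Without the array labelled knockout 2 the macrophage median was 0.63, and 7 of 23 were called higher (Adgre1, Csf1r, Lyz2, C1qa, C1qb, Ctss and Mpeg1) where 0.729% of probe sets were. Without heterozygote 1 as well 11 were called higher, where 1.08% of probe sets were. Among the 11 were the class II genes Cd74, H2-Aa, H2-Ab1 and H2-Eb1. The interferon-response list stood at a median of 0.16 with 19 of 22 above 0 and 7 (31.8%) higher without overlap, against 8.44% of all genes. Oasl2, an interferon-induced gene, gave 326.6, 311.6 and 346.5 against 238.9, 214.1 and 199.3 (log2 0.60, SE 0.11, limma adjusted p = 0.115).

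Surface epithelium markers stood above 0 in 16 of 17 genes, with a median of 0.34, and 12 (70.6%) did not overlap, against 8.44% of all genes and 12.9% of the brighter ones. Plet1 gave 282.9, 280.6 and 261.5 against 183.3, 147.8 and 131.7, with 114.3, 133.4 and 148.0 in the wild type (log2 0.85, SE 0.13, limma adjusted p = 0.0809). Aldh1a2, a retinoic acid-forming enzyme, gave 722.9, 919.3 and 716.5 against 463.4, 489.3 and 442.0 (log2 0.75, SE 0.12, adjusted p = 0.0809), and Upk1b, a uroplakin, gave 504.3, 473.4 and 443.3 against 299.9, 312.5 and 258.2 (log2 0.71, SE 0.12). In all 3 genes every labelled knockout array lay above every heterozygote and wild-type array. Keratins Krt7, Krt18 and Krt19 stood at 0.39, 0.29 and 0.58 without overlap, whereas Cdh1, the epithelial cadherin, stood at 0.06 and overlapped. Summed intensity of the list was 7074 to 7427 in labelled knockouts, 5357 to 5588 in heterozygotes and 5067 to 5903 in the wild type. Without knockout 2 the median was 0.43. Aldh1a2 (0.63, limma adjusted p = 0.0445) and Lgr5 (0.83, adjusted p = 0.0445) were called, 2 of 17 where 0.729% of probe sets were called higher. Without heterozygote 1 as well Plet1 alone was called (adjusted p = 0.0364), where 1.08% of probe sets were called higher. The part that epithelial cells play in the rise of Dsc2 was not tested.

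Fibroblast stroma markers stood above 0 in 17 of 19 genes, with a median of 0.29 and 14 higher without overlap (73.7%, against 8.44% of all genes and 12.9% of the brighter ones). Lum, a small proteoglycan, gave 1104, 1034 and 1050 against 807.6, 665.0 and 727.2 (log2 0.54, SE 0.10, limma adjusted p = 0.115), and Col1a2 of collagen I gave 6338, 5796 and 6092 against 4807, 4882 and 5151 (log2 0.30, SE 0.07). Mfap5 went the other way, at -0.50 without overlap. Summed intensity was 36310 to 39460 in labelled knockouts and 30770 to 31790 in heterozygotes, with the wild type between at 32720 to 35220. Endothelium markers stood above 0 in 15 of 17, with a median of 0.23 and 10 without overlap (58.8%, against the same shares). Kdr, a receptor for vascular endothelial growth factor, gave 662.1, 577.5 and 665.9 against 460.7, 513.7 and 455.7 (log2 0.41, SE 0.08, adjusted p = 0.134), and Esam, a junction protein of endothelium, stood at 0.30. Wild-type arrays of Kdr, at 581.1, 499.7 and 532.1, overlapped both groups. Without knockout 2, 0.729% of probe sets were called higher. The stroma median was then 0.33 with Dcn called (0.61, limma adjusted p = 0.0451), 1 of 19. The endothelium median was 0.28 with Kdr called (0.48, limma adjusted p = 0.0497), 1 of 17. The Kdr call was lost without knockout 2 and heterozygote 1 (adjusted p = 0.0631).

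Adipocyte markers had the widest spread of the lists, from -0.51 for Pparg to 1.55 for Car3, with a median of 0.38 and 14 of 16 above 0, 9 of them without overlap (56.2%, against 8.44% of all genes). Adipoq, the adiponectin gene, gave 170.9, 172.2 and 170.3 in labelled knockouts, 119.5, 58.3 and 72.3 in heterozygotes and 132.9, 132.9 and 143.6 in the wild type (log2 1.10, SE 0.21, limma adjusted p = 0.117). Cfd, which encodes adipsin, gave 727.9, 462.0 and 585.1 against 402.3, 184.4 and 162.7 (log2 1.34, SE 0.34, adjusted p = 0.180), and Plin1, which coats lipid droplets, stood at 0.67. For Adipoq and Car3 the labelled knockouts lay above, and the heterozygotes below, every wild-type array. Car3 and Acsl1 were called without knockout 2, where 0.729% of probe sets were called higher. Adipoq and Car3 were called without heterozygote 1, where 4 of 25100 probe sets were called higher. Without both arrays 7 of 16 were called higher, Adipoq, Fabp4, Car3, Cfd, Retn, Cidec and Acsl1, where 1.08% of probe sets were. Fat around the ovary can enter a dissected sample, and its part in these values was not tested.

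**Figure D4:**
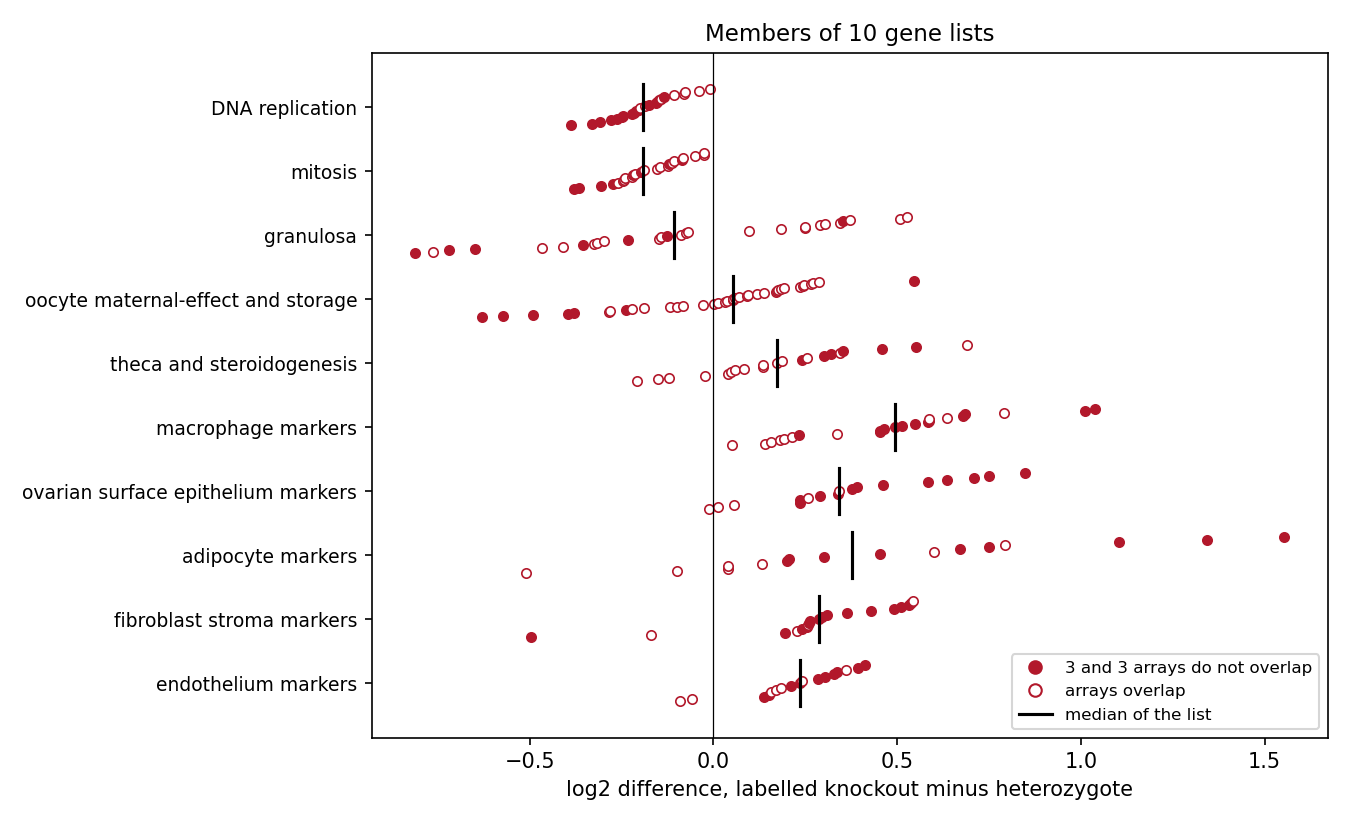
Log2 difference, labelled knockout minus heterozygote (x axis), of each measured member of 10 gene lists, filled where the 3 and 3 arrays do not overlap, with the list median as a bar. Replication and mitosis genes all lie below 0, all macrophage markers above 0, and adipocyte markers reach 1.55.

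Hedgehog genes had a median of 0.13, with 11 of 14 above 0 and 3 (21.4%) higher without overlap, against 8.44% of all genes. The list averaged 0.011 to 0.117 in labelled knockouts, -0.083 to -0.051 in heterozygotes and 0.020 to 0.132 in the wild type. The wild type thus shared the range of the labelled knockouts, and the heterozygotes lay below both. Boc, a co-receptor, stood at 0.41 without overlap and the ligand Ihh at -0.32. Lists of the ovulation response (median 0.04), cholesterol synthesis and uptake (0.02), apoptosis (-0.0080) and immediate early genes with heat shock genes (0.00018) held no called gene, and the ovulation and cholesterol medians turned to -0.030 and -0.080 without knockout 2. Within them Soat1, which esterifies cholesterol, gave 4514, 5113 and 4877 against 3889, 4020 and 3885 (log2 0.30, SE 0.06, limma adjusted p = 0.149), and the anti-apoptotic gene Bcl2 gave 391.1, 335.0 and 424.9 against 281.6, 328.4 and 259.8 (log2 0.40, SE 0.11, adjusted p = 0.187). Both were apart between the groups, by a narrow margin in Bcl2. Fos, an immediate early gene, stood at -0.47 (SE 0.22) with overlap.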

How the data were processed

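Per the labels' protocols, RNA was isolated with Trizol. Per the series' design text, 300 ng of each sample were labelled for Mouse Gene 1.0 ST arrays and the authors normalized the data by RMA-Sketch in Affymetrix Expression Console 1.1. RMA is also named in the submitters' processing notes. The deposited intensity values are linear (4.51 to 25000 here, array medians 123.7 to 126.89), and log2 values were computed from them. The authors' deposited table for these groups, whose intensities equal the value table, gives per the file headers a ratio (fold change, heterozygote over knockout) and a p-value, which is under 0.05 at 2059 of 28242 probe sets. In the authors' deposited table the Taf4b fold is 1.19 (p = 0.421). The annotation release and genome build are not given in the sources used here.

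Current symbols were taken from RefSeq genes (GRCm38.p6), for 18712 probe sets through an accession, for 2208 through the symbol and for 1751 through a synonym, and 2278 kept the symbol of the file. Of 28266 probe sets 3166 had no symbol and 151 several, 26 symbols had been turned into dates, 1344 genes had several probe sets and 308 probe sets repeated the values of another. No value column was left unmapped (0).

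Limma 3.58.1 in R 4.3.3 was fitted to log2 values of all 9 arrays with 1 mean per genotype, eBayes and two-sided Benjamini-Hochberg adjustment over 25100 probe sets. Groups follow the labels, 3 arrays each, and p-values measure the spread between these mice. The procedure was run on 5 simulated data sets of independent normal values, in which whole arrays did not differ. It recovered 88.4% of 1.5-fold changes there, and 5.87% of its calls were false. These shares do not describe the present data, where calls moved with single arrays. Alternatives were other scalings, filters, fits and arrays left out. The number of arrays limits the precision.

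Lists (28) were described with 1 probe set per gene, the one with the highest mean, by counts and medians, with no test. The rule named Taf4b, the called genes with 1 symbol and separate arrays (up to 15 in each direction, filled to 10 by smallest p, without predicted or clone names), up to 4 members of each list by p, called members, and defining markers. The members and lists were chosen with earlier results of these data known. Other genes, such as Mfap5, Pparg, Xlr3a, Esr2 and neighbours of Taf4b, were named after their values were seen. Promoters came from RefSeq, GRCm38.p6, matched by symbol for 6 of 7 leading genes (not Slc6a15). One gene that the rule would name is not reported here.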

Additional observations from a re-analysis of the deposited data

How the results depend on the processing

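With 3 arrays per genotype the count of calls moved with most choices, from 6 probe sets of 5 genes. It was 0 and 0 for the 6 compared arrays alone, 11 and 10 after quantile normalization, 30 and 26 with dim probe sets left out (below a mean intensity of 45.0, the 25th percentile), 152 and 148 with array weights, 14 with 1 probe set per gene, 8 genes with an intensity trend in the variance prior, and 409 and 382 without knockout 2 and heterozygote 1. Equal-variance tests, on log2 or linear values of the 6 arrays, each called 1 probe set of 1 gene, a different one (LOC668971, -0.08). Leaving out 1 array gave 0 to 261 probe sets and 0 to 237 genes, with the 261 and 237 without the array labelled knockout 2. All 6 were shared under quantile normalization, without dim probe sets, with weights, and with the trend, 5 when all probe sets were tested (Nova1 was lost, adjusted p = 0.0514), and 3, 3 and 4 without heterozygote 1, knockout 3 and wild type 1. Over 21 settings Nova1 was called in 8, Trpc6 in 9, Slc6a15 in 11 and Dsc2 in 13. The replicate block called 0 probe sets and 0 genes in limma, with 3565 at an unadjusted p under 0.05. Deviations of same-numbered labelled knockout and heterozygote arrays correlated at 0.089, -0.020 and -0.19, and those of differently numbered arrays at -0.15 to 0.25. Same-numbered arrays were therefore not more alike than the others. With 3 arrays per group such correlations cannot decide whether equal numbers mark paired mice. Of the list medians 528 kept within the spread and 32 moved. The largest numbers moved without knockout 2 and heterozygote 1 (8) and without knockout 2 alone (6). Others moved with another labelled knockout or heterozygote array left out, or with weights, quantile normalization, an intensity offset or dim probe sets left out. All 28 kept with the 6 arrays alone, the replicate block, the variance trend, 1 probe set per gene and equal-variance tests. Leaving out a wild-type array also moved none. Except for the test on linear values, these settings cannot change the medians. Over the genes of the naming rule, 2365 values kept direction and side of the threshold, 131 passed it and 56 no longer did. In settings that cannot change a difference, the direction was fixed beforehand. Among the genes of the naming rule Foxr1 alone reversed, from -0.14 to 0.0016 without knockout 2 and heterozygote 1 (-0.21 to -0.0012 with single arrays left out). Taf4b stayed below 0 in every setting, from -0.68 to -0.10, and at -0.30 wherever a setting cannot change its difference. Genes near background have compressed differences.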

Other observations

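Genes around Taf4b on chromosome 18, named after their values were seen, were read in the GRCm38.p6 order. Of the 20 protein-coding neighbours on each side 40 were measured, 4 stood higher and 4 lower without overlap, against 8.44% and 8.04% of all genes, and Dsc2 was the 1 called in limma. Dsg2, a desmosomal cadherin 13 genes away, stood at 0.47 (SE 0.13, adjusted p = 0.204) with separate arrays, and Cables1, on the other side, at -0.85 (SE 0.26, adjusted p = 0.229). Dsc3 and Dsc1, which flank Dsc2, stood at 0.09 and 0.00.

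Markers of cells that adjoin or enter the ovary varied. Ovgp1, the oviductal glycoprotein, gave 267.0, 313.6 and 457.1 in labelled knockouts, 184.4, 113.3 and 58.8 in heterozygotes and 38.2, 143.4 and 103.1 in the wild type (log2 1.65, SE 0.53, limma adjusted p = 0.240), and 11 of 15 oviduct markers stood above 0, with a median of 0.13. Lymphocyte markers split, 8 of 15 above 0 with a median of 0.0034: Ptprc, the pan-leukocyte CD45 gene, stood at 0.54, and the B-cell gene Ms4a1 gave 66.4, 71.1 and 93.7 against 99.99 to 116.0 (log2 -0.52, SE 0.12, adjusted p = 0.164). Cd3d, a T-cell receptor subunit, stood at -0.41 at intensities of 21.1 to 30.5, below the 25th percentile of mean intensity (45.0). Smooth muscle and pericyte (median 0.09), erythroid and platelet (-0.05), skeletal muscle (-0.09) and male gonad markers (0.02) held no called gene. The Y-linked Ddx3y stood between 21.2 and 25.7 in all 9 arrays, and Eif2s3y between 8.54 and 9.21.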
